A study of Mus musculus with 108 samples.

Results

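The genes described here encode proteins that hold epithelial cells together, seal the space between them or connect their cytoplasm. They are 9 of the 45195 rows of the deposited table, found by matching Ensembl identifiers to the mouse symbols Cdh1, Epcam, Ocln, Tjp1, F11r, Cldn3, Cldn10, Gjb1 and Gjb2. The rule names them by symbol and uses no measured value, and all 9 had a value in every cell. Each cell was a single acinar cell, the enzyme-secreting cell type of the exocrine pancreas, from untreated male C57Bl/6 mice aged 12 weeks. The gland was digested with collagenase and Accutase, and cDNA was made from polyA RNA by a modified SMART-seq2 procedure without molecular identifiers. The labels place all cells in 1 group and name no animal, day or plate. The group therefore counted as 1 sample, no test was possible, and SDs and ranges describe the spread between cells.

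In a polarised epithelium, adherens junctions built on cadherins attach neighbouring cells. Tight junctions built on claudins, occludin and junctional adhesion molecules seal the space near the apical surface, and cytoplasmic scaffolds such as ZO-1 tie them to actin. Gap junctions, assembled from connexins, let ions and small molecules pass from cell to cell. Rodent acinar cells are known for extensive gap junctional coupling through connexin 32 and connexin 26, the products of Gjb1 and Gjb2. Enzymatic isolation breaks these contacts before the RNA is collected.

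The values are TPM, a share of each cell's transcripts corrected for length and scaled to 1000000, so levels of different genes can be set side by side. Read depth cannot be recovered from TPM and is unknown. A median of 4156 genes per cell stood at or above 1 TPM, the level called detected here (range 2624 to 6946). In 21 cells, numbered 92 and above and called short-total cells, values added up to no more than 990520 TPM and to as little as 788380 TPM. The other 87 cells, called full-total cells and numbered 1 to 91, added up to 1000000 within rounding. Every cell below means these 21 and 87 cells together. Each cell held all 10 acinar markers. None held any of 9 lymphocyte or 5 mesothelial markers, and a count of 0 cells, taken as up to 3, leaves room for a share of at most 2.78%. Cell 40 held 8 of 10 endothelial markers and had the 6946 genes. It and cell 31 held all 8 proliferation markers, and cell 96 held 4 of 10 stellate or fibroblast markers.

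Both connexins and both claudins were present in nearly all cells, and the scaffold gene Tjp1 was near 0 in most. Cldn3, Cldn10 and Gjb1 were detected in every cell (100%, exact 95% binomial interval 96.6% to 100%). Gjb2 was detected in all but 7 cells (93.5%, interval 87.1% to 97.4%), Epcam in 86 (79.6%, 70.8% to 86.8%) and F11r in 78 (72.2%, 62.8% to 80.4%). Cdh1 was detected in 73 cells (67.6%, 57.9% to 76.3%), Ocln in 54 (50.0%, 40.2% to 59.8%) and Tjp1 in 3 (2.78%, 0.577% to 7.90%). These intervals cover counting error over cells only. Thus 8 of 9 genes were detected in at least 54 cells, against 8.25% of all rows and 18.7% of the rows above 0 in some cell. In every cell 3 were detected, against 1.78% of all rows. A median of 7 of the 9 genes was detected per cell. The lowest count was 3, in cell 92, and all 9 were detected in cell 85 alone.

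**Figure D1:**
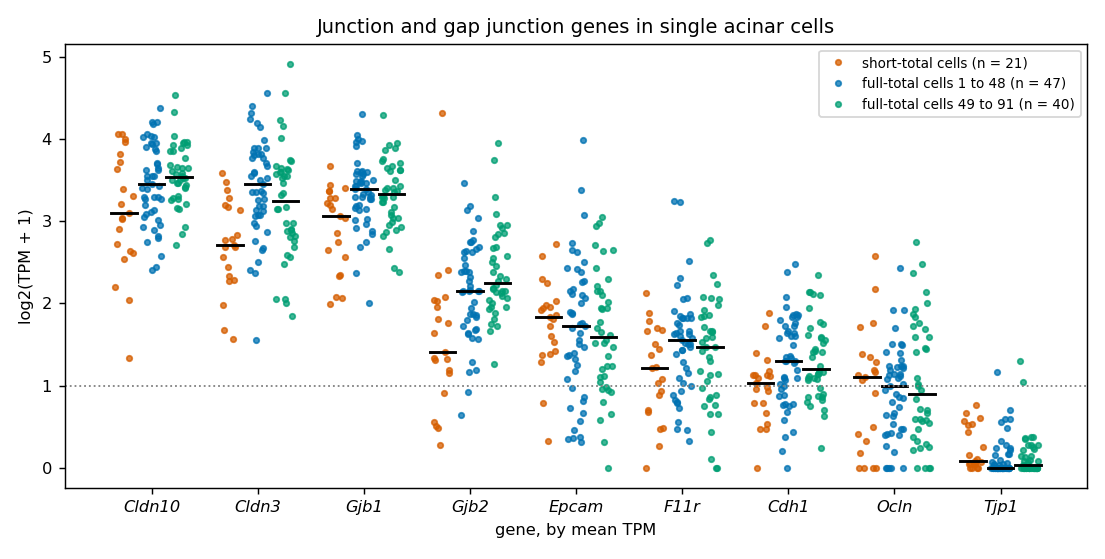
Level of each of the 9 genes in each cell, as log2(TPM + 1), ordered by mean TPM. Points are cells, black bars are medians of the 21 short-total cells and of the 47 and 40 full-total cells numbered 1 to 48 and 49 to 91, and the dotted line marks 1 TPM. Cldn10, Cldn3 and Gjb1 lie above the line in every cell, and Tjp1 lies below it in all but 3.

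Cdh1 encodes E-cadherin, the cadherin of epithelial adherens junctions (ENSMUSG00000000303, chromosome 8, 106603351 to 106670246 on GRCm38, plus strand). Its lowest value was 0, its median 1.25 TPM and its highest 4.6 TPM, in cell 40. No cell reached 5 TPM, although Cdh1 was above 0 in all but 2 cells, so it was low but rarely listed at 0. Epcam encodes an epithelial adhesion glycoprotein that binds claudin 7 (ENSMUSG00000045394, chromosome 17, 87635979 to 87651129). It ranged from 0 to 14.96 TPM around a median of 2.28 TPM. The highest value again came from cell 40, the next was 9.44 TPM in cell 15, and 13 cells reached 5 TPM.

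The cytoplasmic partners of E-cadherin were unevenly represented. Of 18 adherens junction genes, Cdh1 included, 5 were detected in at least 54 cells, 5 in fewer and 8 in none. The shares in at least 54 cells were 8.25% of all rows and 18.7% of rows above 0 in some cell. Ctnnb1, which encodes beta-catenin, was detected in every cell at a median of 5.36 TPM. Jup, which encodes plakoglobin, was detected in 90 cells, Pdlim1, which encodes a PDZ and LIM domain protein of actin filaments, in 100, and Afdn, which encodes the nectin-binding protein afadin, in 66. Ctnna1, which encodes alpha-catenin, was detected in 48 cells and Nectin2 in 31. Cdh2, Cdh3 and Cdh4, which encode other classical cadherins, were detected in none. Of 14 desmosomal genes, 2 were detected in at least 54 cells, against 8.25% of all rows and 18.7% of rows above 0 in some cell. Perp was detected in all but 1 cell and the plakophilin gene Pkp3 in 72, whereas Dsg2, Pkp4 and Pkp2 were detected in 40, 30 and 22, and 7 genes in none. Among genes tied to EpCAM, Spint2 and Spint1, which encode inhibitors of the membrane protease matriptase, were detected in every cell at 54.2 ± 11.1 and 6.66 ± 2.52 TPM. The tetraspanin gene Cd9 was detected in 98 cells and St14, which encodes matriptase, in 39. Of 15 epithelial regulators, 1 was detected in at least 54 cells, against 8.25% of all rows and 18.7% of rows above 0 in some cell. This was Esrp2, which encodes an epithelial splicing factor, in 70 cells. Esrp1, Elf3 and Ovol2 were detected in 30, 41 and 27, and Klf5 and Grhl2 in 7 and 5. Grhl1 and Ovol1 were detected in 3 each and Snai1 in 1. Grhl3, Zeb1, Zeb2, Twist1, Twist2 and Snai2 were detected in none. The keratin genes Krt8 and Krt18 were detected in every cell, at 20.9 ± 12.3 and 31.4 ± 15.6 TPM.

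Cldn3 and Cldn10 encode 4-pass membrane proteins of the tight junction strand. Claudin 3 is known as a sealing claudin, while claudin 10 isoforms are known as pores for ions. Cldn3 (ENSMUSG00000070473, chromosome 5, 134986214 to 134987472) averaged 9.26 ± 4.81 TPM, with a minimum of 1.94, a median of 8.39 and a maximum of 29.19 TPM, in cell 54. Its exons overlap those of Wbscr25 on the opposite strand, which was detected in 1 cell, at 1.55 TPM. No other annotated exon overlapped those of the 9 genes. Cldn10 (ENSMUSG00000022132, chromosome 14, 118787908 to 118875489) averaged 10.5 ± 3.87 TPM, with a minimum of 1.53, a median of 10.35 and a maximum of 22.17 TPM, in cell 78. It had the highest mean of the 9 genes, at rank 722 of the 19969 rows above 0 in some cell. Cldn3 stood at rank 795.

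Cldn10 is annotated with alternative starts, and the deposited values are per gene, so they do not divide its level between them. RefSeq promoter windows were matched for 8 of the 9 genes by symbol, and for Cldn10 the 2 windows differed in base composition. The 250 bases before each start are printed from 5′ to 3′ on the gene's strand, with the build's coordinates given after them. Capitals mark each GC box, GGGCGG on either strand.
Cldn10 upstream start: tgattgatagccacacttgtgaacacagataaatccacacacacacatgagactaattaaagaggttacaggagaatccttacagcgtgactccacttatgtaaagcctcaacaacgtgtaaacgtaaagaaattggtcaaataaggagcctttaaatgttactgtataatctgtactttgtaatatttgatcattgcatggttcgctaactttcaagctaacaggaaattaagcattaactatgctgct
Cldn10 downstream start: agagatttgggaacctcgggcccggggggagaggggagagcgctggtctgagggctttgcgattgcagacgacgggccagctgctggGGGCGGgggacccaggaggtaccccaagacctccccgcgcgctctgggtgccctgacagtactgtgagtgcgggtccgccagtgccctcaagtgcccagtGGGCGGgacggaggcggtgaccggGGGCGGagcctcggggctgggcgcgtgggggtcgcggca
These windows are chr14:118787621-118787870 and chr14:118854700-118854949 on GRCm38.p6, plus strand. GC content was 36% in the upstream window, with 4 CpG and no GC box, and 72.4% in the downstream window, with 22 CpG and 3 GC boxes. Over all 32851 windows the median GC content was 52.4% and the median number of CpG was 6.

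Of 24 claudin genes measured, 5 were detected in at least 54 cells, 5 in fewer and 14 in none. The shares over the whole table were 8.25% of all rows and 18.7% of rows above 0 in some cell, so the count alone does not set claudins apart. Cldn7, which encodes the claudin that binds EpCAM, was detected in all but 5 cells at a median of 4.96 TPM. Cldn8 was detected in 82 cells (75.9%, interval 66.7% to 83.6%) and Cldn9 in 63 (58.3%, 48.5% to 67.7%). Cldn12, Cldn6 and Cldn23 followed in 26, 19 and 2 cells. Cldn1, Cldn2 and the endothelial claudin gene Cldn5 were detected in none. Cells held between 3 and 7 claudins, most often 5 (50 cells). Of the summed claudin TPM in a cell, Cldn10 took 34% ± 11 and Cldn3 28.7% ± 10.2 (SD over all cells). Cldn10 was the highest claudin in 63 cells, Cldn3 in 35 and Cldn7 in 10.

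**Figure D2:**
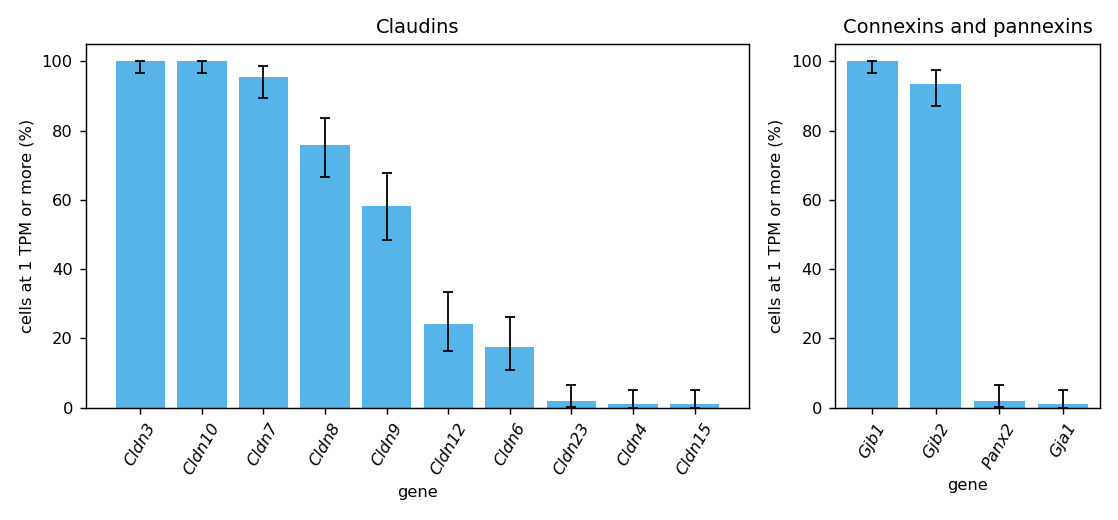
Share of all cells in which each claudin, connexin or pannexin gene stood at 1 TPM or more. Only genes detected in at least 1 cell are drawn, and error bars are exact 95% binomial intervals. In the left panel 5 claudins exceed 50%, and in the right panel only Gjb1 (100%) and Gjb2 (93.5%) do.

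Cldn10 and Cldn3 were close in level, and which was higher differed from cell to cell. The median within-cell log2 ratio of Cldn10 to Cldn3, with 1 TPM added to each, was 0.26 (SD 0.80 over cells, range -1.61 to 2.08), which is smaller than its spread. Cldn10 was higher in 67 cells and Cldn3 in 41. At one extreme cell 99 held 15.7 TPM of Cldn10 and 2.95 TPM of Cldn3, and at the other cell 4 held 6.73 and 22.67 TPM. Their levels were nearly unrelated over cells (Spearman 0.065).

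Ocln encodes occludin, a 4-pass protein of tight junction strands (ENSMUSG00000021638, chromosome 13, 100496507 to 100552718, minus strand). It was listed at 0 in 13 cells, had a median of 0.995 TPM and reached 5.72 TPM in cell 83. F11r encodes JAM-A, an immunoglobulin-domain adhesion protein (ENSMUSG00000038235, chromosome 1, 171437535 to 171464603). It was listed at 0 in 3 cells, had a median of 1.77 TPM and reached 8.51 TPM in cell 1 and 8.44 TPM in cell 40. Tjp1 encodes ZO-1, the scaffold beneath tight junctions (ENSMUSG00000030516, chromosome 7, 65296165 to 65527781, minus strand). It was listed at 0 in 49 cells, had a median of 0.03 TPM and reached 1.47 TPM in cell 83, 1.25 TPM in cell 22 and 1.06 TPM in cell 85. Genes in general use were also listed at 0 in some cells, such as Tbp in 27, Polr2a in 12 and Hprt in 2, so a 0 is not read as absence.

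Of 25 non-claudin tight junction genes 4 were detected in at least 54 cells, 20 in fewer and 1 in none, again close to the 18.7% of rows above 0 in some cell. Among genes of cytoplasmic junction proteins, Tjp3, which encodes ZO-3, was detected in 6 cells, Cgn, which encodes cingulin, in 15, its relative Cgnl1 in 19 and the polarity gene Pard3 in 43. The 4 genes detected in at least 54 cells were Ocln, F11r, the polarity gene Crb3, in 98 cells, and Lsr, in 88. Lsr encodes the tricellular junction protein angulin 1. Marveld2, which encodes tricellulin, was detected in 9 cells, and Jam2 and Jam3, close relatives of F11r, in 1 and 2.

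Genes with longer annotated transcripts tended to have lower levels. The longest annotated transcripts measured 1259 bases for Cldn3, 1585 for Gjb1 and 2128 for Cldn10. They measured 4052 bases for Ocln, 4430 for Cdh1 and 7049 for Tjp1. The Spearman correlation of mean TPM with longest transcript was -0.85 across the 9 genes. Across 7202 genes detected in at least 10% of cells it was -0.31. Genes are not independent replicates, and the part that length plays in these levels was not tested.

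Gjb1 and Gjb2 were nearly the whole of the connexin family in these cells. Gjb1, which encodes connexin 32 (ENSMUSG00000047797, chromosome X, 101376378 to 101385629), averaged 9.05 ± 3.10 TPM, from 2.99 through a median of 8.86 to 18.9 TPM, in cell 16. Gjb2, which encodes connexin 26 (ENSMUSG00000046352, chromosome 14, 57098600 to 57104702, minus strand), averaged 3.94 ± 2.75 TPM, from 0.21 through a median of 3.43 to 18.92 TPM. They were the 2 of 23 connexin and pannexin genes detected in at least 54 cells. The shares over the whole table were 8.25% of all rows and 18.7% of rows above 0 in some cell. The count alone therefore does not set this family apart. Of the 23 genes, 19 were detected in no cell. The other 2 were Panx2, in 2 cells, and Gja1, which encodes connexin 43, in cell 40 only, at 2.39 TPM. Gjb2 took 28.9% ± 12.9 and Gjb1 70.1% ± 13.5 of the summed TPM of the family (SD over all cells).

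Gjb2 was lower than Gjb1 in all but 2 cells. The median within-cell log2 ratio of Gjb2 to Gjb1 was -1.09 (SD 0.79), a ratio of 0.469. The ratio ranged from -3.13 in cell 16, with 1.28 TPM of Gjb2 and 18.9 TPM of Gjb1, to 1.99 in a short-total cell with 18.92 TPM of Gjb2, its highest value, and 4.03 TPM of Gjb1. Cell 88 was the other cell with more Gjb2 than Gjb1. The levels of Gjb2 and Gjb1 were only weakly related over cells (Spearman 0.17, and 0.057 within full-total cells).

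**Figure D3:**
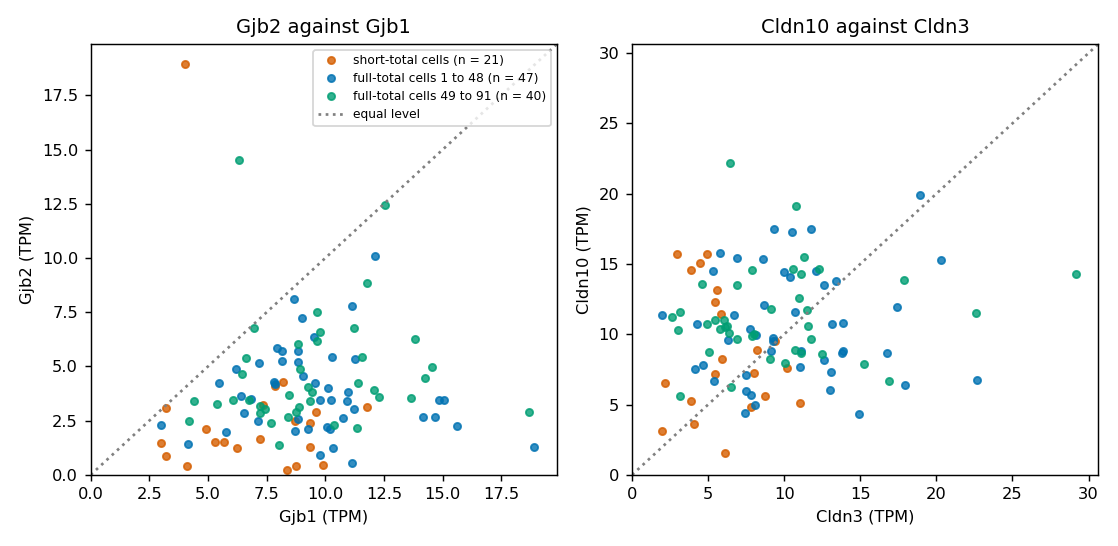
Gjb2 against Gjb1 (left) and Cldn10 against Cldn3 (right) in TPM, with each point a cell and the dotted line marking equal levels. Gjb2 lies below the line in all but 2 cells, whereas Cldn10 lies above it in 67 and below it in 41.

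Ordered by mean TPM, the levels ran from Cldn10 through Cldn3, Gjb1, Gjb2, Epcam, F11r, Cdh1 and Ocln to Tjp1. Of the 8 steps between neighbours, only that from Gjb1 to Gjb2 (5.11 TPM) exceeded the larger of the 2 SDs. Cldn10, Cldn3 and Gjb1 were therefore not separated beyond their spread, nor were the steps from Gjb2 to Ocln. Ocln was above Tjp1 in 94 cells, although that step of 1.07 TPM was smaller than the SD of Ocln. The 9 genes together summed to a mean of 40.2 ± 11.4 TPM per cell, from 18.34 TPM in a short-total cell to 78.56 TPM in cell 54.

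None of the genes tested stood far above the spread usual for its mean. The squared coefficient of variation (CV) was divided by a lowess trend over all genes detected in at least 10% of cells, a filter that 8 of the 9 genes passed. Tjp1 did not pass. At or above 2 times the trend stood 0 of 8 genes, against 12.0% of all genes tested. The ratio was 1.37 for Epcam, 1.34 for Gjb2, 1.28 for Cldn3 and 1.09 for Ocln. It was 0.95 for F11r, 0.69 for Cldn10, 0.55 for Gjb1 and 0.51 for Cdh1. The median over the 8 genes was 1.02, against 1.00 over all genes tested. The CV itself was lowest for Gjb1 (0.343) and Cldn10 (0.368) and highest among the 8 for Ocln (0.960). For Epcam and Gjb2 the ratio within smaller sets of cells depended on 1 cell. In the 47 cells numbered 1 to 48 the ratio of Epcam was 2.06, and 1.35 without cell 40. In the 21 short-total cells that of Gjb2 was 4.18, and 0.753 without the cell that held 18.92 TPM.

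**Figure D4:**
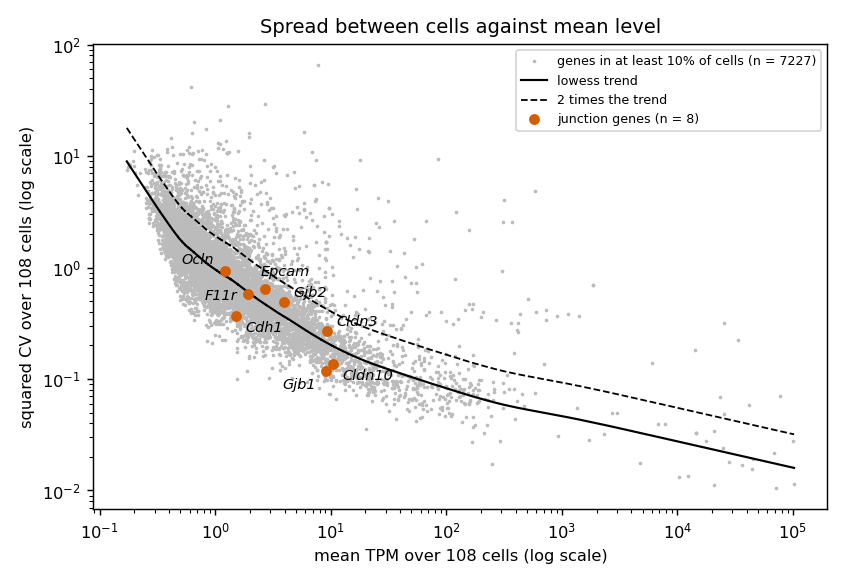
Squared CV over all cells against mean TPM, both on log scales, for the genes detected in at least 10% of cells (grey) and 8 junction genes (orange), with the lowess trend (solid) and 2 times the trend (dashed). All 8 junction genes lie below the dashed line.

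Epcam was highest in the 5 cells with the most of the ductal marker Spp1. Spp1 encodes osteopontin, a secreted protein abundant in pancreatic duct cells. In cells 15, 29, 40, 56 and 75 the summed TPM of the 10 ductal markers lay between 189.5 and 376.4, against 12.3 to 52.6 in all others. Spp1 made up most of it, at 164.18 to 343.58 TPM against at most 6.14 TPM elsewhere. Epcam stood at 9.44, 7.42, 14.96, 6.92 and 7.33 TPM in these 5 cells, in that order, and at no more than 6.71 TPM in any other cell, where its median was 2.14 TPM. The groups did not overlap, as was so in this direction for 0.0415% of the genes tested (3 of 7227, the others being Anxa5 and Tspan7). The genes tested were detected in at least 11 cells, so genes confined to these 5 cells were not counted. Spp1, detected in 10 cells, was left out for this reason although its groups did not overlap. The share is therefore not one over all genes. Cldn4 was above 0 in 4 of the 5 cells (0.22, 0.29, 2.94 and 0.84 TPM) and listed at 0 in all others. It was detected in cell 40 only, so it too was not among the genes tested. No share over all genes was computed for this pattern. Cdh1 was 1.81 to 4.6 TPM in the 5 cells and at most 3.42 TPM in the others, and 3 of the 5 held its 3 highest values. Cldn3 was 11.1 to 18.9 TPM against a median of 8.10 TPM, but its highest value, 29.19 TPM, lay outside the 5 cells. Gjb1 and Gjb2, at 7.44 to 13.6 and 3.02 to 5.45 TPM, lay within the range of the other cells. All 10 acinar markers were detected in each of the 5 cells, with Cpa1 between 18531 and 21457 TPM and a median of 21060 TPM elsewhere. Ptf1a was 3.43 to 21.4 TPM in the 5 cells, with a median of 10.75 TPM elsewhere, and Bhlha15 was 3.05 to 15.59 TPM, with a median of 12.82 TPM elsewhere. Rbpjl was 23.22 to 35.31 TPM, below the median of 34.15 TPM elsewhere in 4 of the 5 cells. Of the other ductal markers, Krt19 was 3.09 to 11 TPM in them and at most 14.66 TPM elsewhere, while Cftr and Krt7 stayed below 1 TPM. Without these 5 cells the CV ratio of Epcam was 0.79. These cells were chosen by the marker sum after the values had been seen, and the part of duct RNA in them was not tested. No other gene of the 9 had its 5 highest values in these cells.

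The 9 genes were weakly and mostly positively correlated over cells. Over the 28 pairs of the 8 genes that passed the filter, the median Spearman correlation of log2(TPM + 1) was 0.17 (range 0.022 to 0.38), and 28 of 28 were positive. The median over all 26111151 pairs of tested genes was also positive, at 0.056, and was 0.080 over pairs of genes in at least 50% of cells. The highest values were 0.38 for Cdh1 and Cldn3, 0.36 for F11r and Cldn3, 0.35 for Cldn3 and Gjb2, 0.34 for F11r and Gjb1, 0.32 for Cdh1 and F11r and 0.30 for Cldn3 and Gjb1. Cldn3 and F11r thus took part in most of them. Among all tested genes ranked by correlation with Cldn3, F11r was number 154 and Gjb2 number 177. Cldn10 had its highest correlations with Epcam (0.23) and Ocln (0.22). Tjp1 was at or below 0.12 with every other gene, and at -0.16 with Cldn10.

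**Figure D5:**
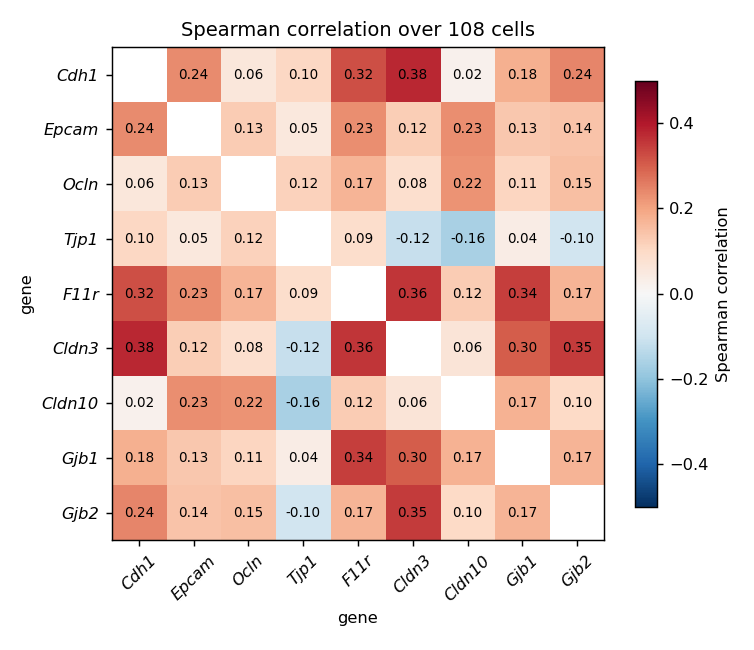
Spearman correlation over all cells for each pair of the 9 genes, with the value printed in each square (colour scale from -0.5 to 0.5). Cldn3 and F11r hold the highest values, up to 0.38, and the negative values all involve Tjp1.

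Part of this correlation moved with the number of genes detected per cell. All 9 genes were positively correlated with that number, from 0.029 for Tjp1 and 0.21 for Cldn10 to 0.49 for Cdh1 and 0.53 for Cldn3. With each gene taken as a residual on it, the median over the 28 pairs was 0.051 and that over all pairs 0.0045, with 21 of 28 pairs positive. With median-of-ratios scaling it was 0.073 against 0.015, with 21 of 28 positive. Within the 87 full-total cells it was 0.17 against 0.050, with 26 of 28 positive. Within the 21 short-total cells it was 0.11 against 0.044, with 19 of 28 positive. For differences between consecutively numbered cells it was 0.19 against 0.051. The cells share library preparation, and TPM are shares of a fixed total. The correlation of Cdh1 and Cldn3 was 0.35 in full-total cells and 0.18 as a residual on genes detected, and that of Cldn3 and Gjb2 was 0.29 and 0.13.

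F11r, Cldn3 and Gjb2 each have a single RefSeq start, and after Cdh1, F11r and Gjb2 had the highest correlations with Cldn3 among the other 8 genes. Their windows of 250 bases before the start are shown for comparison, again with GC boxes in capitals. Cdh1 had no window.
F11r: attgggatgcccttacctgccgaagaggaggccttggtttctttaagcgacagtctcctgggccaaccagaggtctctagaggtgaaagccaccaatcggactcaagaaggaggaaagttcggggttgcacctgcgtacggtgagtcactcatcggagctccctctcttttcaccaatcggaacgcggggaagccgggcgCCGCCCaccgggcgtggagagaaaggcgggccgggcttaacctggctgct
Cldn3: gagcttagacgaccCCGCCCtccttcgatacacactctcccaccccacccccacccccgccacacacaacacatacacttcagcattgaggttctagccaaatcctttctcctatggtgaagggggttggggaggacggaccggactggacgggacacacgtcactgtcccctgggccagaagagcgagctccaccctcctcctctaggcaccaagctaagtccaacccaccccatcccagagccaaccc
Gjb2: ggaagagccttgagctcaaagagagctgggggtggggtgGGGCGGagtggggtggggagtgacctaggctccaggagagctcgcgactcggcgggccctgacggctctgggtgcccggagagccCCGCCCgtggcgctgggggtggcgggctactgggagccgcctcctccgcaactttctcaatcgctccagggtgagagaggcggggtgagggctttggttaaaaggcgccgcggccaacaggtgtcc
They lie at chr1:171437311-171437560 (plus strand), chr5:134985964-134986213 (plus strand) and chr14:57104703-57104952 (minus strand) on GRCm38.p6. GC content was 60.8% for Cldn3 and 69.2% for Gjb2, and each held 1 or 2 GC boxes. A GC box was found in at least 1 window of 8 of the 8 matched genes (9 of 13 windows), and in 32.7% of all windows. The sequence TATAAA was found in 1 of the 13 windows, for Gjb1, and in 12.4% of all windows. The grainyhead motif AACCNGTT was found in 0 of 13 and in 1.79% of all windows. CCAAT was found in 5 of 13 and in 33.8%, and the E-box CANNTG in 10 of 13 and in 66.2%. All were searched on both strands, and CANNTG reads the same on both. A match of letters describes the window and is not a binding site.

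Both connexins, Cldn3, Cldn10, Cdh1 and F11r had lower medians in the short-total cells, and Epcam, Ocln and Tjp1 had higher ones. Gjb2 had 0.21, 1.66 and 18.92 TPM (lowest, median, highest) in the 21 short-total cells and 0.56, 3.57 and 14.5 TPM in the 87 full-total cells. Cldn3 had 1.96, 5.58 and 11.04 TPM in short-total cells and 1.94, 9.25 and 29.19 TPM in full-total cells. Gjb1 had 2.99, 7.36 and 11.77 TPM in short-total cells and 3.01, 9.25 and 18.9 TPM in full-total cells. Cldn10 had 1.53, 7.59 and 15.74 TPM in short-total cells and 4.31, 10.57 and 22.17 TPM in full-total cells. The ranges overlapped for each gene. Of the 7 cells in which Gjb2 was below 1 TPM, 5 were short-total. Mean log2(TPM + 1) in short-total minus that in full-total cells was -0.70 for Gjb2, -0.62 for Cldn3, -0.43 for Gjb1 and -0.40 for Cldn10. The SDs over full-total cells were 0.59, 0.64, 0.42 and 0.45, and over all cells 0.71, 0.67, 0.47 and 0.53, in that order. Each difference was smaller than the SD over all cells, which itself includes the difference between the sets. Those of Gjb2 and Gjb1 were larger than the SD over full-total cells, and those of Cldn3 and Cldn10 were smaller. Without the cell that held 18.92 TPM the difference of Gjb2 was -0.84, which is larger than the 0.71 over all cells.

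The junction genes have to be read against the genes as a whole. Of all genes tested, 77.6% had lower means in short-total cells, with a median of -0.15. Of the 8 junction genes 7 did, with a median of -0.36. Lower by more than 0.5 were 2 of 8, Gjb2 and Cldn3, against 7.28% of all genes. Higher by more than 0.5 were 0 of 8, against 0.623% of all genes. Cdh1 differed by -0.32, F11r by -0.30, Epcam by 0.077 and Ocln by -0.018. When TPM were rescaled without the digestive enzymes the median of all genes moved to -0.0052 and that of the 8 genes to -0.14. Gjb2 then differed by -0.48, Cldn3 by -0.34, Gjb1 by -0.14, Cldn10 by -0.11 and Epcam by 0.31. Ocln changed sign, to 0.081, and was 0.11 with median-of-ratios factors and 0.011 with each cell scaled to 1000000. Under all 4 scalings 6 of 8 genes lay below the median of all genes. Short-total cells also had fewer genes detected, with a median of 3939, against 4224 in full-total cells. The part of that in these differences was not tested, and the labels do not say whether these cells came from another animal or day.

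Between the full-total cells numbered 49 to 91 and those numbered 1 to 48 the genes differed little. Medians were 3.76 and 3.46 TPM for Gjb2, 9.08 and 9.52 TPM for Gjb1, 8.53 and 9.98 TPM for Cldn3 and 10.7 and 9.93 TPM for Cldn10, in that order. The largest difference on the log2(TPM + 1) scale was 0.23 for Gjb2, and the median over the 8 genes was -0.0029, against -0.038 over all genes. Each was smaller than the SD between cells.

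Genes outside the list were ranked by their Spearman correlation with each gene over all cells, among 5334 genes detected in at least 25% of cells. Gjb2 was most like Kdelr2 (0.59), Ssr2 (0.52) and Rab1a (0.49), and Gjb1 most like Ppib (0.44), Tmed3 (0.44) and Gpcpd1 (0.41). Cldn3 was most like Ly6e (0.56), Tspan13 (0.53) and Idh2 (0.50), and Cldn10 most like Lyrm4 (0.36), Dnajb6 (0.36) and Cpb1 (0.35). Genes like Cdh1 included Cxadr (0.48) and Dpp3 (0.47), and Epcam was most like Vdac3 (0.41), Ywhaq (0.41) and Ccnc (0.40). F11r was most like Ndufa4 (0.46), Echs1 (0.46) and Clta (0.45), and Ocln most like Fam129a (0.43), Rbm47 (0.38) and Cxxc5 (0.36). For Tjp1 the highest were Stag1 (0.34), Insig1 (0.33) and Kmt2c (0.33). These rankings were not stable. Of the 27 genes that ranked in the first 3 for a gene, 6 were among the 3 highest for the same gene within full-total cells alone. These were Cxadr for Cdh1, Ywhaq for Epcam, Fam129a for Ocln, Ndufa4 for F11r, Ly6e for Cldn3 and Kdelr2 for Gjb2. By mean correlation with the 8 genes, Cxadr, which encodes a tight junction adhesion protein, came first (0.30). It was followed by Tmbim6, Xbp1, Slc38a10, H13, Hnrnpf, Idh2, Fkbp4, Ppib and Akr1a1 (0.29 to 0.30), against a median of 0.093 over all 5334 genes. In full-total cells alone 2 of these 10 remained, and in short-total cells 1.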

How the data were processed

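Each sample was 1 acinar cell and all cells formed 1 group. The authors' deposited table held TPM rounded to 2 decimals for 45195 Ensembl genes. The unit was read from the values, and the mm10 build and the tools edgeR, RSEM 1.2.21 and STAR 2.4.2a are listed, with no role, per the submitters' processing notes. Columns were matched by cell number, and 44548 rows had a symbol. Gene spans and transcript lengths came from GENCODE M21 on GRCm38, which is mm10, and are 1-based. Promoter windows came from RefSeq.

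Detection was 1 TPM or more. Intervals are Clopper-Pearson at 95%. The CV trend was a lowess fit (span 0.3, log10 scales, statsmodels 0.14.6), and correlations used log2(TPM + 1), both with pandas 2.3.3, numpy 2.4.6 and scipy 1.17.1. The functions were tested on simulated data. No cell was left out, and no doublet caller was run. Spread and correlation were computed for genes detected in at least 11 cells. Short-total cells are those summing to under 999900 TPM. The genes, the lists and the cell sets were chosen with earlier results of these data known. All 9 genes were named, with the 3 most correlated others for each, the 10 most correlated with the list (some genes are not reported here), and list genes detected in at least 54 cells or next highest. Other list genes given at low or no detection, cell 40 and the 5 Spp1 cells were chosen after their values were seen. How reads shared by close relatives, such as claudins, were counted is not given in the sources used here, so their values are uncertain.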

Additional observations from a re-analysis of the deposited data

How the results depend on the processing

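Every value rests on cells that together count as 1 sample, with read depth unknown, so a gene under 1 TPM is not shown to be absent. The count of 8 genes detected in at least 54 cells was 9 for values above 0 TPM, 3 at 5 TPM and 1 at 10 TPM, and 7 or 8 under the other scalings and cell sets. Ocln stood at exactly 50.0% of cells. No gene reached 2 times the CV trend, except 1 in the short-total cells (Gjb2) and 1 in cells 1 to 48 (Epcam). The median pair correlation fell to 0.051 as a residual on genes detected and lay between 0.073 and 0.19 under the other settings. The cause was not tested. Of the other values 33 moved, mostly shares of cells at another detection level or within 1 set of cells, and 2 came to stand above 2 times the trend (Gjb2 at 4.18 and Epcam at 2.06 in the sets just named). The remaining 226 did neither. The median set difference over the 8 genes and both median within-cell ratios kept their direction under every setting run and moved by less than their spread. The difference of Ocln, near 0, changed sign under the 3 other scalings and against cells 1 to 48 (0.043). It also did so with 5 TPM added in place of 1 TPM (0.00096). Leaving out cells 15, 29, 40, 56 and 75, chosen after seeing the data, gave 8 genes, 0 genes and a median correlation of 0.16. No paired analysis was possible because there is 1 group.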
